A study of Mus musculus with 12 samples.

Results

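The genes described here are 33 genes of cholesterol and fatty acid metabolism, taken by symbol from a named list out of 55450 genes in the deposited table. By role they are 15 enzymes of sterol synthesis, 3 regulators of that pathway (Srebf1, Srebf2 and Insig1), 3 genes of sterol transport (Stard4, Abca1 and Abcg1), 6 genes of fatty acid synthesis (Acly, Acaca, Fasn, Elovl6, Scd1 and Scd2), and 6 genes of fatty acid oxidation and binding (Cpt1a, Cpt2, Acadm, Acadl, Hadha and Fabp5). All 33 passed the filter on low counts and were among the 15361 genes tested. Their RNA was measured by sequencing in 12 libraries of CD4+ cells from mouse thymus, 4 from each of 3 populations. Every mouse was CD4-Cre x Foxp3-GFP, so the Tconv cells carry the Cre driver and the reporter as well. Eos+ Treg were sorted as CD4+ Foxp3+ cells that were positive for both Ccr6 and Cxcr4. Eos- Treg were CD4+ Foxp3+ cells without either receptor, and Tconv, the conventional T cells, were CD4+ Foxp3- cells. The transcription factor Eos is the product of Ikzf4, and the sort used Ccr6 and Cxcr4 in its place. The labels do not give the animals' age, or whether replicates came from separate animals, so the spread that p-values rest on here may be technical.

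Cells make cholesterol from acetyl units by way of mevalonate, squalene and lanosterol, and the genes of that route are switched on together by the factor SREBP2 when sterol in the endoplasmic reticulum is low. SREBP1 has the same role for fatty acid synthesis, in which Acly, Acaca and Fasn build palmitate and Elovl6, Scd1 and Scd2 lengthen and desaturate it. Fatty acids enter mitochondria through the carnitine shuttle of Cpt1a and Cpt2 and are shortened there by Acadm, Acadl and Hadha. Proliferating T cells draw on lipid synthesis, and regulatory T cells are known for their use of fatty acid oxidation.

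Levels are given as CPM, the count of a gene after scaling every library to the same total of 1 M counts, and the 4 values of a group follow the replicate numbers 1 to 4. Ikzf4 was at 292 to 334 CPM in Eos+ Treg, 155 to 181 in Eos- Treg and 22.7 to 27.4 in Tconv, so the Eos- Treg libraries also held its RNA. Ccr6 was at 227 to 263 CPM in Eos+ Treg, 10.4 to 19.7 in Eos- Treg and 1.08 to 4.22 in Tconv. Cxcr4 was at 25.2 to 52.9 CPM in Eos+ Treg, 22.7 to 42.3 in Eos- Treg and 7.27 to 20.5 in Tconv, so by RNA the Treg groups overlapped for this second sort marker. Summed over 7 Treg markers the level was 4189 to 5495 CPM in Eos+ Treg, 2868 to 4630 in Eos- Treg and 432 to 613 in Tconv. The libraries numbered 1 stood apart: Foxp3 was at 55.0 CPM in that Eos+ Treg library and 53.3 in that Eos- Treg library, against 485 to 862 in the other Treg libraries. Those 3 libraries also held 301, 272 and 224 CPM of erythroid and granulocyte markers in Eos+ Treg, Eos- Treg and Tconv, where no other library passed 27.5. Markers of immature, double-positive thymocytes summed to 377, 90.8, 58.5 and 54.0 CPM in Eos+ Treg. Their sums were 394, 182, 36.6 and 37.4 CPM in Eos- Treg and 300, 321, 78.8 and 87.3 in Tconv. Depth was 23.9 to 37.9 M expected counts per library, of which the 33 genes took 0.173% to 0.225%.

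Of the 33 genes, 4 were higher in Eos+ Treg than in Eos- Treg (Scd1, Fabp5, Acadl and Hadha, 12.1%) and 1 was lower (Elovl6, 3.03%) at an adjusted p under 0.05 (edgeR quasi-likelihood F test, Benjamini-Hochberg over 15361 genes). Over all tested genes the shares were 9.82% higher and 6.45% lower, so the count is near the background. In Eos+ Treg against Tconv 6 genes were higher (Fabp5, Acaca, Acadl, Cpt2, Insig1 and Sc5d, 18.2%) and 1 was lower (Scd2, 3.03%), with backgrounds of 17.3% and 13.0%. Between Eos- Treg and Tconv 0 were higher and 1 was lower (Scd2, 3.03%), with backgrounds of 8.76% and 5.89%. DESeq2 called 5 in that comparison, 1 of them higher. At an unadjusted p under 0.05 the edgeR counts were 9, 12 and 7 of the 33 genes in the same order. Over all 15361 tested genes they were 4459, 6086 and 4250. The median log2 change of the 33 genes was 0.20 in Eos+ against Eos- Treg, 0.16 in Eos+ Treg against Tconv and 0.05 in Eos- Treg against Tconv, beside 0.00266, -0.00752 and -0.0120 over all tested genes. Without the libraries numbered 1 the counts were 4, 6 and 2. With the replicate number in the model as a block they were 8, 11 and 6. In these settings and with DESeq2, counts over all tested genes stayed within 1.5 times of those reported. Their exact shares are not given here, so the shares above are not a matched background. The comparisons share libraries, so they are not separate evidence.

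By role, the 10 genes that passed in at least 1 comparison were 4 of 6 genes of fatty acid oxidation and binding, 4 of 6 of fatty acid synthesis, 1 of 15 sterol enzymes (Sc5d) and 1 of 3 regulators (Insig1). Over all tested genes 36.3% passed in at least 1 comparison, in either direction. None of the 3 transport genes passed, although Abca1 and Abcg1 each did in 1 comparison with the replicate block. Under that block the sterol enzymes Sqle, Cyp51, Dhcr7, Fdps and Lss and the synthesis genes Acly and Fasn also passed in at least 1 comparison. Calls of Acadl, Fabp5, Cpt2 and Scd2 were kept in all 20 alternative settings tried. Those of Hadha, Insig1, Acaca, Sc5d, Scd1 and Elovl6 were each lost in at least 1.

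**Figure D1:**
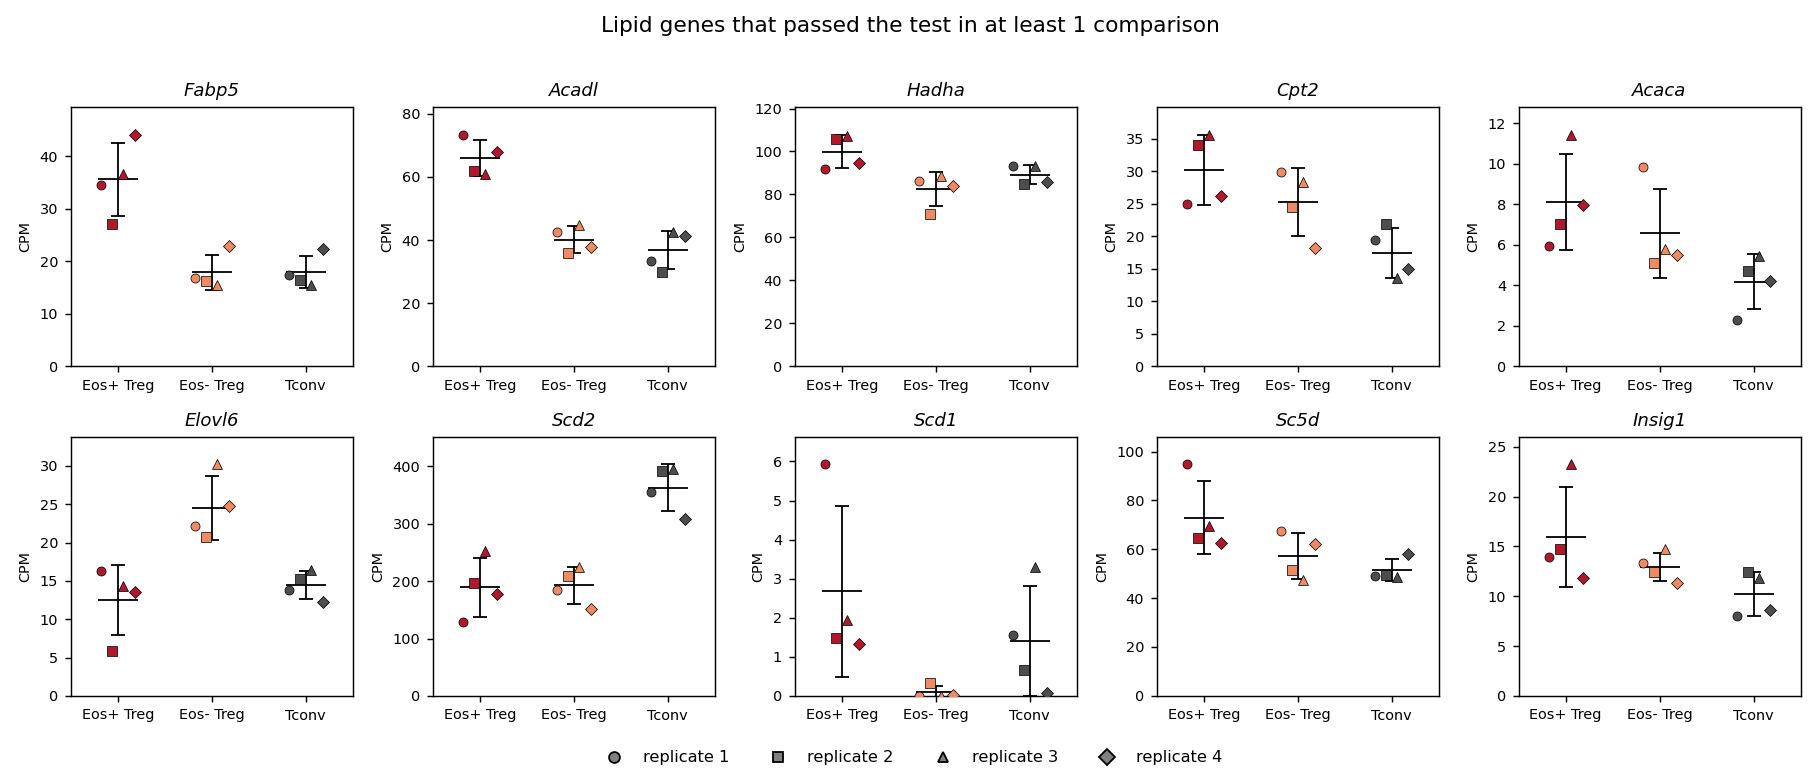
Level in CPM (vertical axes, starting at 0) of the 10 lipid genes that passed the test in at least 1 comparison, in Eos+ Treg, Eos- Treg and Tconv. Each point is 1 library and the bars are the mean ± SD of 4 libraries, ended at 0 for Scd1; Fabp5 and Acadl are higher in every Eos+ Treg library than in any other, and Scd2 is higher in every Tconv library than in any Treg library.

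Of the 6 genes of fatty acid oxidation and binding, 3 were higher in Eos+ than in Eos- Treg (Fabp5, Acadl and Hadha) and 3 in Eos+ Treg than in Tconv (Fabp5, Acadl and Cpt2), where the shares of all tested genes that were higher were 9.82% and 17.3%. Their median log2 change was 0.27 in Eos+ against Eos- Treg, 0.48 in Eos+ Treg against Tconv and 0.02 in Eos- Treg against Tconv. Fabp5, a small cytosolic protein that binds and carries fatty acids (chr3:10012548-10016607, plus strand, GRCm38), had 34.6, 27.0, 36.7 and 44.1 CPM in Eos+ Treg, against 16.8, 16.4, 15.6 and 22.9 in Eos- Treg and 17.5, 16.5, 15.4 and 22.3 in Tconv. Every Eos+ Treg library lay above every library of the other groups, and the Eos- Treg and Tconv libraries covered nearly the same range. Its log2 change was 0.99 (SE 0.18, adjusted p = 0.00247) in Eos+ against Eos- Treg and 0.99 (SE 0.18, adjusted p = 0.0011) in Eos+ Treg against Tconv. In Eos- Treg against Tconv the 95% interval of the log2 change was -0.39 to 0.39. Fabp5 has near-identical copies in the genome, and its expected counts were not whole in 4 libraries, so some of its reads were shared out between genes.

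Acadl, the long-chain acyl-CoA dehydrogenase of mitochondrial oxidation (chr1:66830839-66863277, minus strand), had 73.3, 61.8, 61.0 and 67.8 CPM in Eos+ Treg, against 42.5, 35.8, 44.8 and 37.7 in Eos- Treg and 33.4, 30.0, 42.7 and 41.2 in Tconv. The Eos+ Treg libraries again lay above all others. The level was 1.64-fold higher than in Eos- Treg (log2 change 0.72, SE 0.13, adjusted p = 0.00222) and 1.79-fold higher than in Tconv (log2 change 0.84, SE 0.13, adjusted p = 0.000287). Acadl in Eos- Treg against Tconv had a 95% interval of -0.15 to 0.40. Without the libraries numbered 1, both calls of Acadl and both of Fabp5 remained.

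Cpt2, the inner-membrane enzyme of the carnitine shuttle (chr4:107903981-107923610, minus strand), had 24.9, 34.0, 35.6 and 26.2 CPM in Eos+ Treg, 29.9, 24.5, 28.4 and 18.2 in Eos- Treg and 19.5, 21.8, 13.5 and 15.0 in Tconv. Eos+ Treg did not overlap with Tconv, and Eos- Treg lay between with overlap on both sides. The log2 change in Eos+ Treg against Tconv was 0.79 (SE 0.20, adjusted p = 0.00925). In Eos- Treg against Tconv it was 0.53 (95% interval 0.10 to 0.96, adjusted p = 0.0982).

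Hadha, the alpha subunit of the mitochondrial trifunctional protein (chr5:30118304-30155162, minus strand), had 92.0, 106, 107 and 94.5 CPM in Eos+ Treg, 86.3, 70.8, 88.7 and 84.0 in Eos- Treg and 93.1, 84.8, 93.4 and 85.9 in Tconv. The difference between Eos+ and Eos- Treg was small but the groups did not overlap (log2 change 0.28, SE 0.09, adjusted p = 0.0492). That call was lost in 15 of 20 alternatives, with adjusted p up to 0.144. Among them were the removal of any single library other than Eos+ Treg number 1, for which the adjusted p was 0.0527 to 0.144.

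Neither Cpt1a, the outer-membrane enzyme that admits fatty acids to mitochondria, nor Acadm, the medium-chain dehydrogenase, passed in any comparison. Cpt1a averaged 65.0 ± 8.48 CPM in Eos+ Treg, 56.8 ± 11.7 in Eos- Treg and 59.8 ± 15.1 in Tconv (SD, n = 4 each). Acadm averaged 56.9 ± 6.24 CPM in Eos+ Treg, 62.4 ± 10.1 in Eos- Treg and 60.4 ± 7.51 in Tconv (SD, n = 4 each). For Acadm the 95% interval of the log2 change was -0.42 to 0.15 in Eos+ against Eos- Treg, so a rise of the size seen for Acadl lies outside it. Summed over the 6 genes, the level was 332, 364, 367 and 352 CPM in Eos+ Treg, 286, 285, 277 and 293 in Eos- Treg and 279, 271, 279 and 297 in Tconv.

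Markers of B cells moved with the same groups. The summed level of 10 B cell markers was 1398 to 1831 CPM in Eos+ Treg, 177 to 472 in Eos- Treg and 228 to 403 in Tconv. Of the 9 tested, 4 passed as higher in Eos+ than in Eos- Treg and 3 as higher in Eos+ Treg than in Tconv. Ighm made up most of that sum, with 1330 to 1656 CPM in Eos+ Treg, 172 to 443 in Eos- Treg and 194 to 343 in Tconv. The defining factor Pax5 was at or near 0 throughout (up to 0.376, 0.115 and 0.639 CPM in Eos+ Treg, Eos- Treg and Tconv), while Cd79b, a part of the B cell receptor, was at 25.8 to 49.5 CPM in Eos+ Treg, 2.94 to 11.3 in Eos- Treg and 3.05 to 10.6 in Tconv. Dendritic cell and macrophage markers summed to 19.2 to 117 CPM in Eos+ Treg, 3.15 to 77.1 in Eos- Treg and 15.0 to 49.4 in Tconv. The part of these cells in the changes of the lipid genes was not tested. In such bulk samples fewer cells of a type and less RNA per cell cannot be told apart.

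Among the genes of fatty acid synthesis, changes went in both directions. Scd2, a stearoyl-CoA desaturase, which puts the double bond into oleate (chr19:44293674-44306864, plus strand), had 128, 198, 252 and 178 CPM in Eos+ Treg and 185, 209, 225 and 151 in Eos- Treg, against 356, 393, 395 and 309 in Tconv. Every Tconv library lay above every Treg library, and the range of Eos+ Treg enclosed that of Eos- Treg. Scd2 fell by 0.94 on the log2 scale in Eos+ Treg against Tconv (SE 0.18, adjusted p = 0.0015) and by 0.91 in Eos- Treg against Tconv (SE 0.18, adjusted p = 0.00433). Between Eos+ and Eos- Treg its 95% interval was -0.41 to 0.36.

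Scd1, the neighbouring desaturase gene on the opposite strand (chr19:44394455-44407879, minus strand), stood at a much lower level. It had 189, 52, 67 and 45 counts in Eos+ Treg, 0, 12, 0 and 1 in Eos- Treg and 48, 19, 106 and 3 in Tconv. As CPM these were 5.93, 1.49, 1.95 and 1.32 in Eos+ Treg, 0, 0.342, 0 and 0.0287 in Eos- Treg and 1.57, 0.674, 3.29 and 0.0789 in Tconv. All Eos+ Treg libraries lay above all Eos- Treg libraries, and the Tconv libraries spanned most of the range. Scd1 was higher in Eos+ than in Eos- Treg (log2 change 4.71, SE 1.25, adjusted p = 0.0212), a size that rests on 13 counts in the 4 Eos- Treg libraries together. This call was lost without Eos+ Treg number 1 (adjusted p = 0.0598), Eos- Treg number 3 (0.0542) or Eos- Treg number 4 (0.0597), and the adjusted p was 0.108 without the libraries numbered 1 in every group. With limma-voom on all 12 libraries the call was lost as well (adjusted p = 0.0569). For Eos- Treg against Tconv Scd1 had a log2 change of -3.78 (SE 1.22, adjusted p = 0.0554), with an adjusted p of 0.0138 without Eos- Treg number 2 and 0.0311 without Tconv number 4. Expected counts were not whole in 5 libraries for Scd1 and in 6 for Scd2, so reads of these similar genes were in part shared out.

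Elovl6, which lengthens palmitate to stearate (chr3:129532355-129638495, plus strand), was the member lowered in Eos+ against Eos- Treg. It had 16.3, 5.86, 14.3 and 13.6 CPM in Eos+ Treg, 22.2, 20.8, 30.2 and 24.8 in Eos- Treg and 13.8, 15.3, 16.4 and 12.3 in Tconv. The Eos- Treg libraries were the highest of the 12. Elovl6 fell by 0.97 on the log2 scale in Eos+ against Eos- Treg (SE 0.26, adjusted p = 0.0218), with an adjusted p of 0.0624 without Eos- Treg number 3. Against Tconv, the Eos- Treg libraries had a log2 change of 0.76 (SE 0.26, adjusted p = 0.0663), and 0.74 with the replicate block (adjusted p = 0.0482). Without Eos+ Treg number 2 that adjusted p was 0.00655.

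Acaca, the carboxylase that makes malonyl-CoA (chr11:84129672-84401651, plus strand), had 5.96, 7.00, 11.4 and 7.98 CPM in Eos+ Treg, 9.84, 5.10, 5.81 and 5.49 in Eos- Treg and 2.29, 4.72, 5.47 and 4.23 in Tconv. Eos+ Treg lay above Tconv without overlap (log2 change 0.95, SE 0.32, adjusted p = 0.0372). Its call was lost in 7 of 20 alternatives, 6 of them the removal of 1 library (Eos+ Treg 2, 3 or 4, or Tconv 1, 2 or 4, adjusted p 0.0512 to 0.123). Expected counts of Acaca were not whole in any of the 12 libraries.

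Acly, which cleaves citrate to acetyl-CoA, averaged 336 ± 29.4 CPM in Eos+ Treg, 321 ± 30.9 in Eos- Treg and 378 ± 19.1 in Tconv (SD, n = 4 each). Fasn, the fatty acid synthase, averaged 113 ± 34.1 CPM in Eos+ Treg, 85.9 ± 8.47 in Eos- Treg and 121 ± 18.2 in Tconv (SD, n = 4 each), and its Eos- Treg libraries lay below all Tconv libraries. Neither passed in Eos- Treg against Tconv (log2 change -0.24 for Acly with adjusted p = 0.0864, and -0.49 for Fasn with adjusted p = 0.0782). With the replicate block both passed, at adjusted p = 0.0488 for Acly and 0.0231 for Fasn. Acly also passed without Eos- Treg number 1 (0.0383) and Fasn without Eos+ Treg number 3 (0.012). Summed over the 6 synthesis genes the level was 569, 651, 819 and 606 CPM in Eos+ Treg and 664, 616, 681 and 560 in Eos- Treg, against 899, 896, 921 and 811 in Tconv. Acly and Scd2 carried most of that sum.

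**Figure D2:**
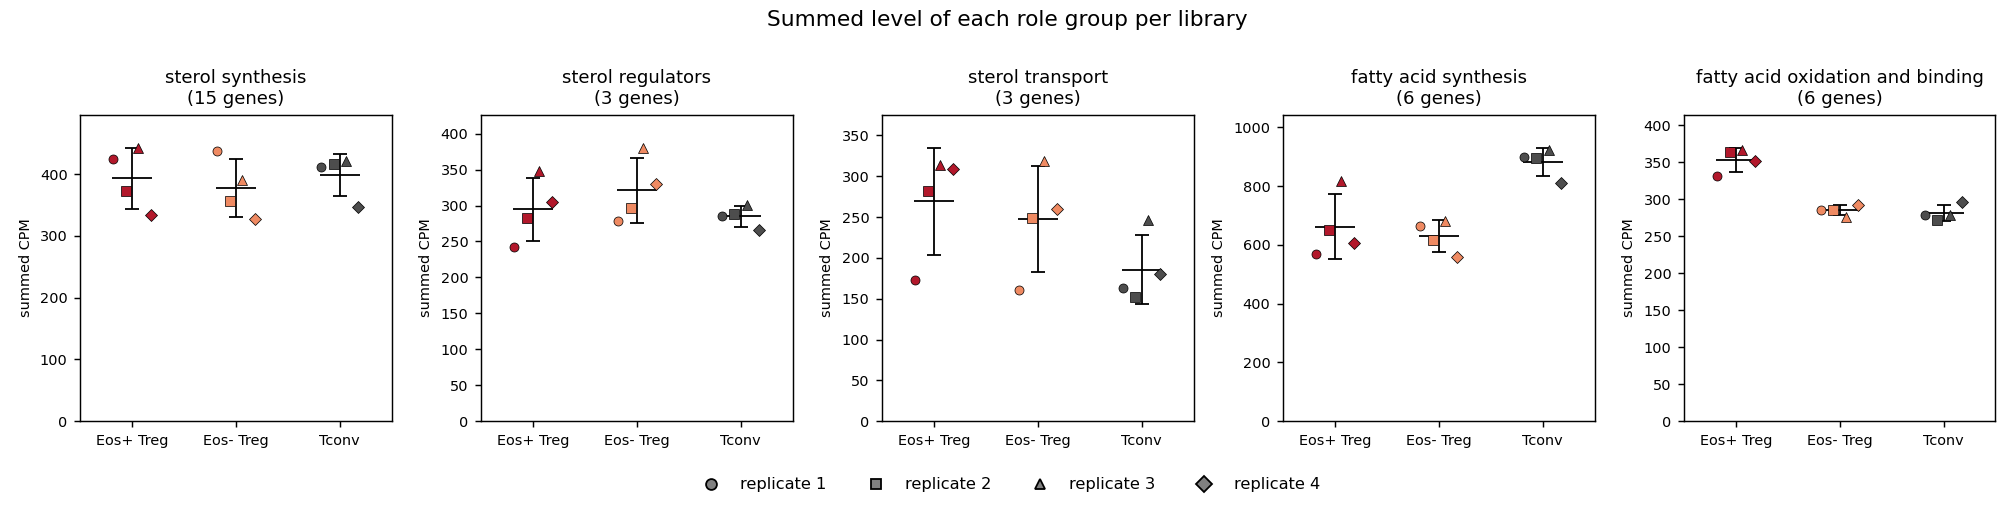
Summed level in CPM (vertical axes, starting at 0) of the lipid genes of each role, in Eos+ Treg, Eos- Treg and Tconv. Points are libraries and bars the mean ± SD of 4; the oxidation and binding sum was 332 to 367 CPM in Eos+ Treg against at most 297 elsewhere, and the fatty acid synthesis sum was 569 to 819 CPM in Eos+ Treg and 560 to 681 in Eos- Treg against 811 to 921 in Tconv.

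Of the 15 sterol enzymes 1 passed in the fit without a replicate block. In Eos+ against Eos- Treg 0 of 15 passed by edgeR, with 3 at an unadjusted p under 0.05, and DESeq2 and limma-voom also called 0. In Eos+ Treg against Tconv only Sc5d passed, with 5 at an unadjusted p under 0.05. In Eos- Treg against Tconv 0 passed, with 0 at an unadjusted p under 0.05 and 0 by DESeq2 and limma-voom. All of these fits leave out the replicate number, which paired the libraries. With it as a block, Sqle, Cyp51 and Dhcr7 passed in Eos+ against Eos- Treg. Fdps, Sqle and Dhcr7 were then added to Sc5d in Eos+ Treg against Tconv, and Lss passed in Eos- Treg against Tconv. Over all 15361 tested genes, 4459, 6086 and 4250 had an unadjusted p under 0.05 by edgeR in the 3 comparisons. Without the block, the all-gene shares called higher and lower were 9.82% and 6.45%, 17.3% and 13.0%, and 8.76% and 5.89%. The all-gene shares with the block are not given here, so the enzymes it added have no matched background. The median log2 change of the 15 enzymes was 0.18, 0.14 and -0.08 in the same order. Their summed level was 424, 372, 443 and 334 CPM in Eos+ Treg, 437, 357, 391 and 327 in Eos- Treg and 411, 416, 421 and 347 in Tconv, and these ranges overlapped. A missed threshold does not show equal levels: the 95% intervals of single enzymes ran from -1.35 to 1.68 in Eos+ against Eos- Treg and from -1.59 to 1.84 in Eos+ Treg against Tconv, where the lower bounds are those of Dhcr7 and the upper bounds those of Sqle.

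Sc5d, a late enzyme that adds a double bond to the sterol ring (chr9:42251595-42264256, minus strand), had 94.7, 64.6, 69.6 and 62.7 CPM in Eos+ Treg, 67.6, 51.6, 47.6 and 62.1 in Eos- Treg and 49.2, 49.5, 48.6 and 58.0 in Tconv. The Eos+ Treg libraries did not overlap with Tconv (log2 change 0.51, SE 0.15, adjusted p = 0.0197). This call was lost without Eos+ Treg number 1 (adjusted p = 0.0563), Tconv number 1 (0.0513) or Tconv number 3 (0.0542), and at 0.0841 without all libraries numbered 1.

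In Sqle, the squalene epoxidase, the libraries had 22.4, 11.5, 20.1 and 11.3 CPM in Eos+ Treg, 18.7, 5.27, 8.92 and 4.62 in Eos- Treg and 10.7, 8.02, 6.25 and 8.62 in Tconv. Eos+ Treg lay above Tconv without overlap, and above the Eos- Treg library of the same number in 4 of 4. Dhcr7, which catalyses the last step to cholesterol, had 41.1, 37.3, 54.3 and 23.6 CPM in Eos+ Treg, 65.1, 62.4, 77.5 and 27.2 in Eos- Treg and 66.9, 84.7, 89.8 and 30.9 in Tconv. The libraries numbered 4 were the lowest of their group for Dhcr7, and within each number the order was Eos+ Treg, Eos- Treg, Tconv from low to high.

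**Figure D3:**
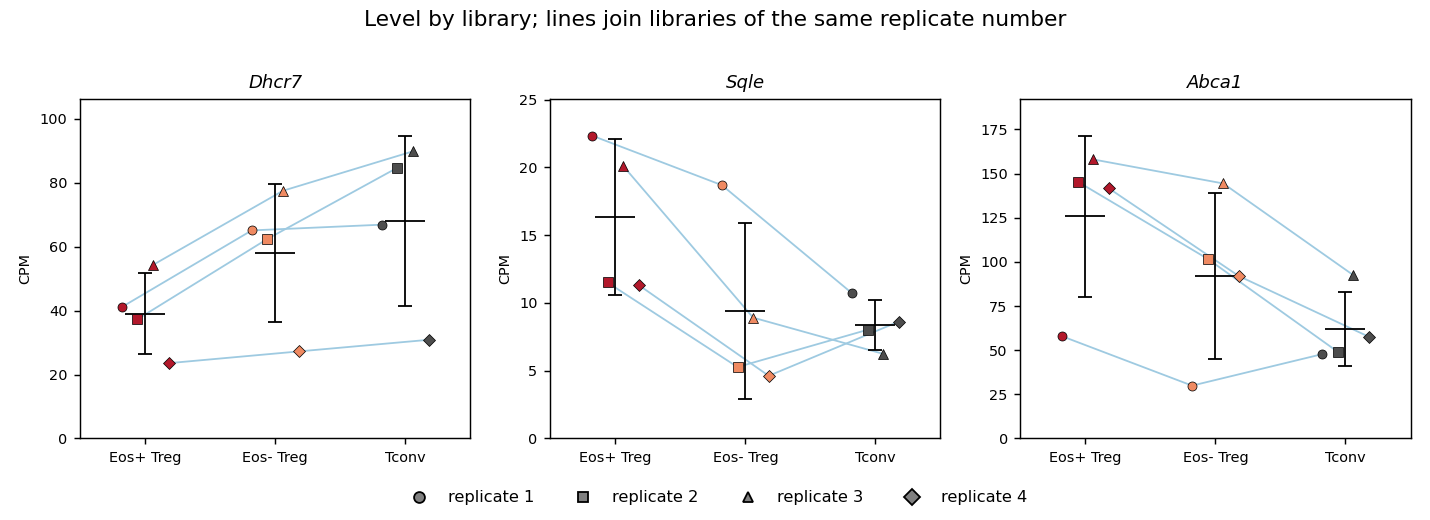
Level in CPM (vertical axes, starting at 0) of Dhcr7, Sqle and Abca1 in Eos+ Treg, Eos- Treg and Tconv, 1 point per library, with the mean ± SD of 4 libraries and lines joining libraries of the same replicate number. The Dhcr7 lines climb from Eos+ Treg to Tconv in all 4 numbers, with number 4 lowest (23.6, 27.2 and 30.9 CPM); these 3 genes were chosen after their values were seen.

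Without a block neither gene passed: Sqle had a log2 change of 0.80 (SE 0.41, adjusted p = 0.213) in Eos+ against Eos- Treg and 0.96 (SE 0.41, adjusted p = 0.0961) in Eos+ Treg against Tconv. Dhcr7 had -0.57 (SE 0.36, adjusted p = 0.332) and -0.80 (SE 0.36, adjusted p = 0.118) in those comparisons. With the replicate number as a block Dhcr7 fell by 0.53 in Eos+ against Eos- Treg (adjusted p = 0.00872) and by 0.75 in Eos+ Treg against Tconv (adjusted p = 0.00057). Under the same block Sqle passed with 0.93 (adjusted p = 0.0391) and 0.88 (adjusted p = 0.0338). Leaving out Eos- Treg number 1 gave Sqle adjusted p of 0.0115 and 0.025 in the same comparisons, and without the libraries numbered 1 in every group its adjusted p in Eos+ against Eos- Treg was 0.0333. For Dhcr7 in Eos+ Treg against Tconv the adjusted p was 0.0317 without Tconv number 4. The block also brought Cyp51, which removes a methyl group from lanosterol, past the threshold in Eos+ against Eos- Treg (log2 change 0.46, adjusted p = 0.0478), Fdps, the farnesyl diphosphate synthase, in Eos+ Treg against Tconv (-0.37, adjusted p = 0.021) and Lss, which closes the rings of lanosterol, in Eos- Treg against Tconv (-0.44, adjusted p = 0.0436).

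Hmgcs1, which supplies the precursor of mevalonate, averaged 31.1 ± 5.22 CPM in Eos+ Treg, 40.7 ± 6.23 in Eos- Treg and 39.0 ± 4.84 in Tconv (SD, n = 4 each). In each of the 4 numbers it was lower in Eos+ than in Eos- Treg, without passing (log2 change -0.39, SE 0.15, adjusted p = 0.101). The mevalonate enzymes Mvk, Pmvk and Mvd and the isomerase Idi1 averaged 6.40, 12.3, 14.8 and 20.0 CPM in Eos+ Treg, 7.69, 10.8, 12.9 and 17.0 in Eos- Treg and 5.82, 11.4, 17.9 and 16.4 in Tconv. Squalene synthase Fdft1, with the later enzymes Msmo1, Nsdhl and Hsd17b7, averaged 32.3, 31.4, 25.3 and 6.21 CPM in Eos+ Treg, 29.3, 26.4, 23.6 and 4.11 in Eos- Treg and 27.5, 31.1, 21.5 and 5.00 in Tconv. None of these 8 passed in any comparison. Of the exons of Fdft1, 18.3% overlap the exons of Ctsb on the other strand, which reached 678 CPM, and the kit does not mark strand, so the level of Fdft1 is uncertain. Smaller overlaps with expressed genes touch Cyp51 (Akap9) and Srebf1 (Rai1).

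Cell cycle genes were summed for comparison. Summed over 17 S phase genes the level was 1546 to 2376 CPM in Eos+ Treg, 998 to 2036 in Eos- Treg and 1612 to 2116 in Tconv. Over 18 G2/M genes it was 216 to 629 CPM in Eos+ Treg, 38.4 to 553 in Eos- Treg and 337 to 650 in Tconv. In each group the library numbered 1 had the highest of both sums. The part of cycling cells in the levels of the lipid genes was not tested.

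Of the regulators, Insig1, which holds the SREBP factors in the endoplasmic reticulum and is itself a target of SREBP (chr5:28071363-28078662, plus strand), had 13.9, 14.8, 23.2 and 11.8 CPM in Eos+ Treg, 13.3, 12.4, 14.7 and 11.4 in Eos- Treg and 8.01, 12.4, 11.8 and 8.65 in Tconv. It was higher in Eos+ Treg than in Tconv (log2 change 0.64, SE 0.22, adjusted p = 0.0455), although the groups overlapped. The call was lost in 13 of 20 alternatives: of the single libraries, the removal of Eos+ Treg 1, 2 or 3, any Eos- Treg library, or Tconv 1, 3 or 4 gave adjusted p of 0.0506 to 0.166. Srebf1, which encodes SREBP1, averaged 158 ± 21.2 CPM in Eos+ Treg, 149 ± 8.59 in Eos- Treg and 141 ± 6.36 in Tconv (SD, n = 4 each). Srebf2, which encodes SREBP2, averaged 121 ± 29.1 CPM in Eos+ Treg, 159 ± 45.2 in Eos- Treg and 134 ± 12.0 in Tconv (SD, n = 4 each). Neither passed, although Srebf2 was lower in Eos+ than in Eos- Treg in 4 of 4 numbers (log2 change -0.40, SE 0.20, adjusted p = 0.213). That adjusted p was 0.0464 without Eos- Treg number 1, and that of Srebf1 in Eos+ Treg against Tconv was 0.0489 without Eos+ Treg number 1, against 0.206 with it.

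Abca1, which exports cholesterol across the plasma membrane, had 57.9, 145, 158 and 142 CPM in Eos+ Treg, 29.9, 102, 144 and 91.9 in Eos- Treg and 47.7, 49.1, 92.5 and 57.6 in Tconv. The library numbered 1 was the lowest of each group. In Eos+ Treg against Tconv the log2 change was 1.03 (SE 0.41, adjusted p = 0.0800), and it was 0.95 with the replicate block (adjusted p = 0.00841). The adjusted p was 0.0293 without Eos+ Treg number 1, 0.0211 without Eos- Treg number 1 and 0.00416 without all libraries numbered 1. In Eos- Treg against Tconv, leaving out those 3 libraries gave an adjusted p of 0.0462, against 0.407 with them.

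Abcg1, another exporter that loads sterol onto lipoprotein, averaged 131 ± 19.9 CPM in Eos+ Treg, 145 ± 21.9 in Eos- Treg and 112 ± 21.2 in Tconv (SD, n = 4 each). It was higher in Eos- Treg than in Tconv in 4 of 4 numbers, with a log2 change of 0.37 (SE 0.15) and an adjusted p of 0.126, or 0.00809 with the replicate block. That adjusted p was 0.0491 without Eos- Treg number 1 and 0.0389 without Tconv number 3. Stard4, a carrier of cholesterol between membranes, was at 10.6 to 18.5 CPM in Eos+ Treg, 8.40 to 14.2 in Eos- Treg and 8.55 to 15.2 in Tconv and passed in no comparison.

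**Figure D4:**
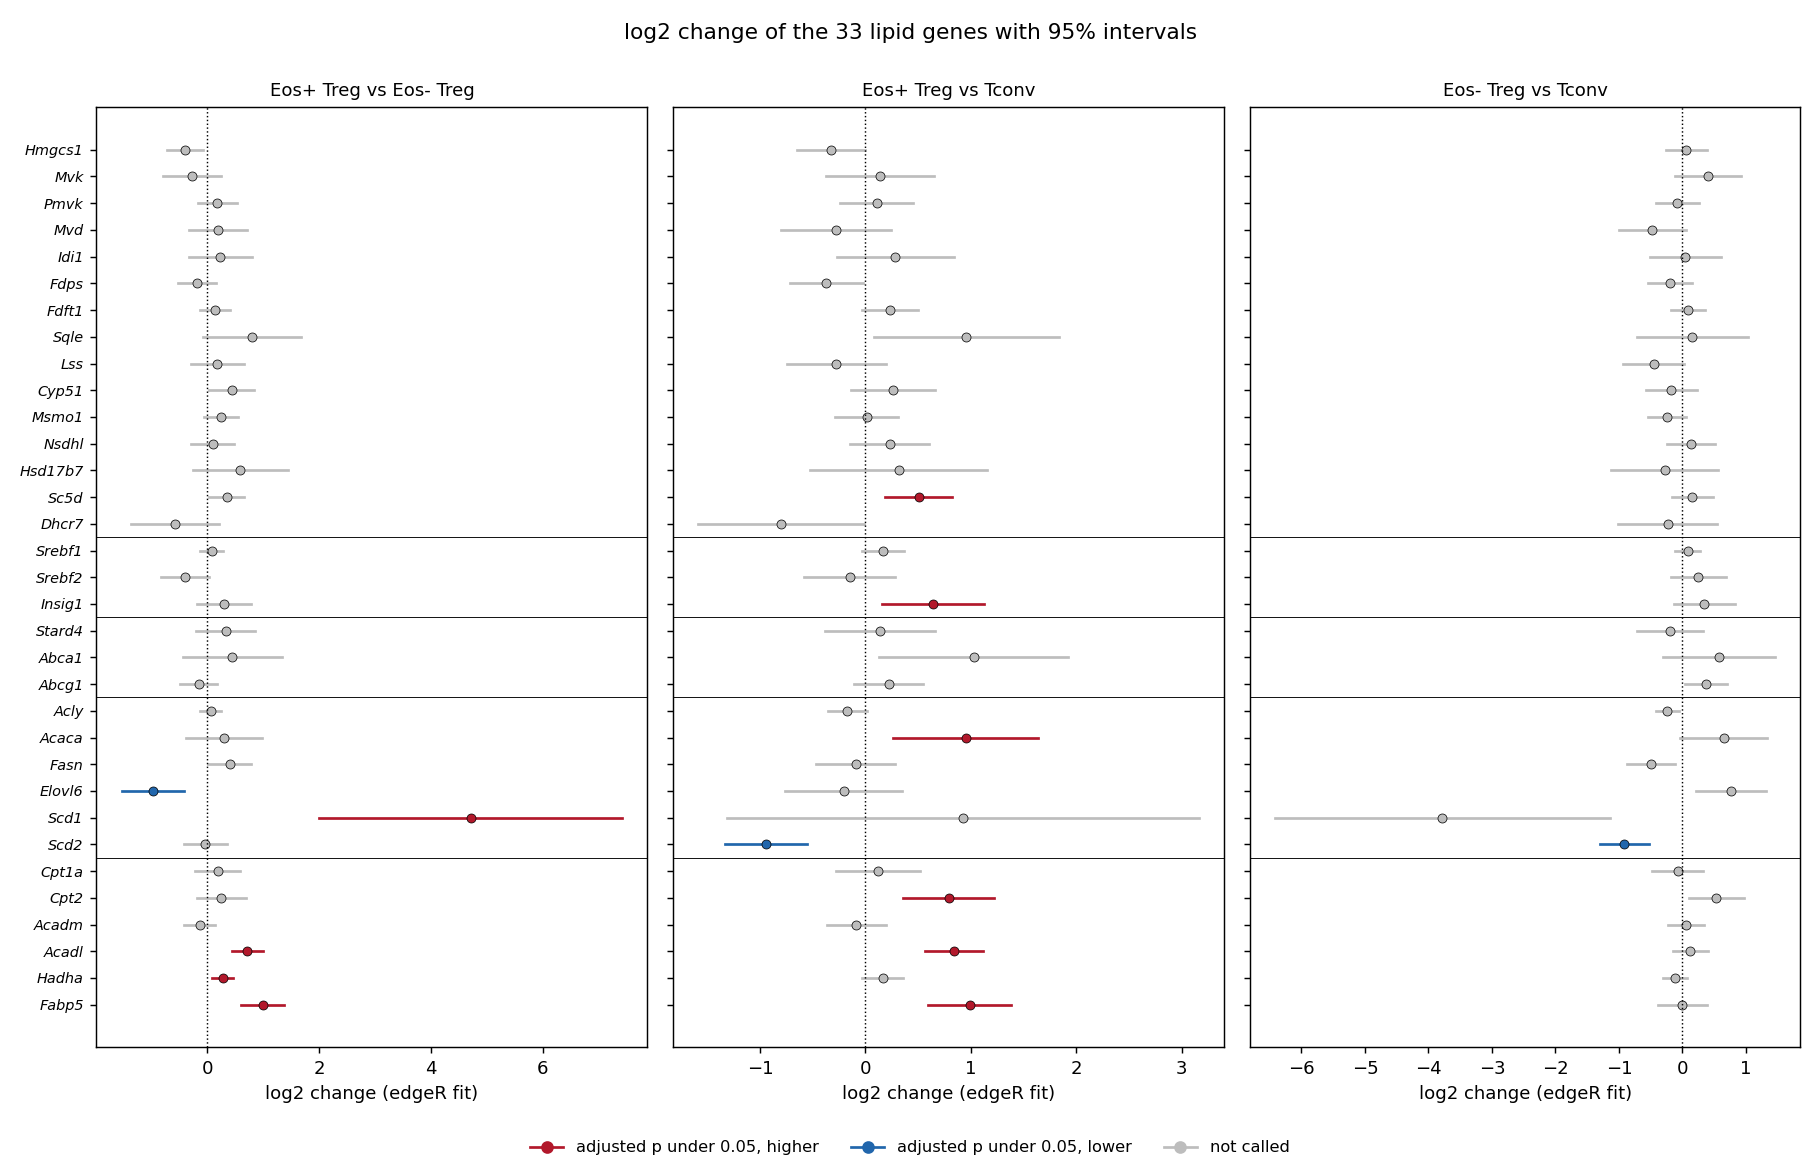
Log2 change (horizontal axes) of the 33 lipid genes with its 95% interval, by role. The panels are Eos+ against Eos- Treg, Eos+ Treg against Tconv and Eos- Treg against Tconv. Red points were higher and blue points lower at an adjusted p under 0.05 by edgeR, and grey points did not pass. The 7 red or blue points in Eos+ Treg against Tconv are 6 to the right of 0 and Scd2 to its left, at -0.94.

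CPM per kilobase of annotated exon permits a rough comparison of levels between genes. The length counts every annotated exon of a gene, used in these cells or not, so the ranks depend on annotation as well. On this scale Acly was the highest of the 33, with 63.6 in Eos+ Treg, 60.8 in Eos- Treg and 71.6 in Tconv. Scd2 followed with 34.6 per kilobase in Eos+ Treg, 35.3 in Eos- Treg and 66.5 in Tconv. Acadl ranked 3 in Eos+ Treg with 32.9 per kilobase, against 20.0 in Eos- Treg and 18.4 in Tconv, in both of which it ranked 5. Scd1, Acaca and Hsd17b7 were the 3 lowest in every group, at up to 1.22 per kilobase. Spread between replicates differed among genes: the coefficient of variation, averaged over the 3 groups, was 7.57% for Hadha, 7.82% for Acly and 7.90% for Srebf1, against 42.1% for Sqle, 40.6% for Abca1, 36.2% for Dhcr7 and 120% for Scd1.

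Promoter sequence was compared next, over the 250 bases before the annotated start (RefSeq, GRCm38.p6), which were at hand for 25 of the 33 genes. The 5 windows shown are those of Hmgcs1, Sc5d and Insig1 from the sterol pathway and of Acadl and Elovl6 from fatty acid metabolism, chosen after their values were seen. Capitals mark a sterol regulatory element (TCACNCCAC), a CCAAT box (CCAAT) and an E-box (CACGTG), on either strand.
Hmgcs1 (chr13:119690101-119690350, plus strand): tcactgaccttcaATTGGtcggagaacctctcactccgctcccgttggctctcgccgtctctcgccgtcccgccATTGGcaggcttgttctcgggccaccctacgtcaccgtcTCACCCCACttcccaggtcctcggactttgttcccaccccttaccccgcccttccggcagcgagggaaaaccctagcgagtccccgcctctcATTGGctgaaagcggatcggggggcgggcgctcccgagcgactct
Sc5d (chr9:42264301-42264550, minus strand): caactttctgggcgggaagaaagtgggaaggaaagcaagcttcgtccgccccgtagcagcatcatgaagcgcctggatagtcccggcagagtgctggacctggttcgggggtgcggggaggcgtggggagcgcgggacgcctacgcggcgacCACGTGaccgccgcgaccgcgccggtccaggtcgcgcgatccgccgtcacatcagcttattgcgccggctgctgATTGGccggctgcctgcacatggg
Insig1 (chr5:28071162-28071411, plus strand): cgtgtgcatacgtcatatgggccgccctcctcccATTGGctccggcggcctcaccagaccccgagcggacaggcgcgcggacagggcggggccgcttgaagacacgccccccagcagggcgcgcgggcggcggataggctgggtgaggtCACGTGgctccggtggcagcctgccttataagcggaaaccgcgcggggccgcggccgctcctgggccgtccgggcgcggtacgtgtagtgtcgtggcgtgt
Acadl (chr1:66863310-66863559, minus strand): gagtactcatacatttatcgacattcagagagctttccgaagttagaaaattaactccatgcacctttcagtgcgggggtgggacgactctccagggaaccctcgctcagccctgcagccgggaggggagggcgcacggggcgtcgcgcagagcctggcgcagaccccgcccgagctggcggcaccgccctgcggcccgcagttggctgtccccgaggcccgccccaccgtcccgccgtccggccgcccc
Elovl6 (chr3:129532136-129532385, plus strand): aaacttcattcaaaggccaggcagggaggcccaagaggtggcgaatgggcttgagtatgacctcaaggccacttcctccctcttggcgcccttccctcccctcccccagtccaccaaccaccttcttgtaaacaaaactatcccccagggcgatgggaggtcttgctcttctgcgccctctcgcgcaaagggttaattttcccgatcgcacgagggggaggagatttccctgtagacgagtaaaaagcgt

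The Hmgcs1 window held the sterol regulatory element, starting 137 bases before the annotated start, with a CCAAT box on the reverse strand starting at 237, 176 and 45 bases before it. Sc5d and Insig1 each held 1 reverse CCAAT box and 1 E-box, and in the Acadl and Elovl6 windows none of these letters was found. A CCAAT box was in 17 of the 25 windows, in 12 of 12 of the sterol enzymes and 2 of 9 of the fatty acid genes, against 37.5% of 26742 genes with a window of this length. An E-box was in 5 of 25 (6.88% of all genes), and TCACNCCAC was in Hmgcs1 alone (1.22% of all genes). The GC box GGGCGG was in 20 of 25 (35.6% of all genes). Of the other 7 motifs searched, TCANCCCAC (1.37% of all genes) and TCACCCCAC (0.561%) were in Hmgcs1, where both match the same letters as TCACNCCAC, and TATAAA (14.3%) was in Abca1. TCACCCCAC with an A before it (0.0823%), TGACGTCA (1.78%), and the repeat of AGGTCA with 1 free base (0.0411%) or 4 free bases (0.0150%) between the copies were in none of the 25. Both strands were searched, genes with several windows were counted once, and a match is a description of letters, not of binding. The 26742 genes were not limited to those that passed the filter on low counts, as the lipid genes all did. Those shares are therefore not a matched background.

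Genes of the same pathways outside the 33 were taken from 7 further lists with 121 genes, of which 109 were tested. In Eos+ against Eos- Treg 18 were higher (16.5%) and 10 lower (9.17%), in Eos+ Treg against Tconv 30 were higher (27.5%) and 20 lower (18.3%), and in Eos- Treg against Tconv 13 were higher (11.9%) and 10 lower (9.17%). Over all tested genes the shares higher and lower were 9.82% and 6.45%, 17.3% and 13.0%, and 8.76% and 5.89% in these comparisons. The median log2 changes of the 109 genes were 0.15, 0.10 and -0.04. Mitochondrial and peroxisomal oxidation, with 26 tested genes, had 6 higher (23.1%) and 1 lower (3.85%) in Eos+ against Eos- Treg, 9 higher (34.6%) and 3 lower (11.5%) in Eos+ Treg against Tconv, and 3 higher (11.5%) and 2 lower (7.69%) in Eos- Treg against Tconv, to be read against the same shares of all tested genes.

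Eci1, an isomerase for unsaturated fatty acids, had 52.2, 58.4, 51.7 and 46.8 CPM in Eos+ Treg, 29.3, 29.3, 24.5 and 21.3 in Eos- Treg and 19.8, 17.0, 23.1 and 19.8 in Tconv. It was 2.00-fold higher in Eos+ than in Eos- Treg (adjusted p = 0.000366) and 2.62-fold higher than in Tconv (adjusted p = 8.25e-06). Etfb, a subunit of the electron carrier that takes electrons from the acyl-CoA dehydrogenases, and Acads, the short-chain dehydrogenase, were 1.59-fold (adjusted p = 0.00118) and 1.42-fold (adjusted p = 0.00742) higher in Eos+ than in Eos- Treg. Hadh, the hydroxyacyl-CoA dehydrogenase of shorter chains, was 1.35-fold higher (adjusted p = 0.0127). Decr1, a reductase needed for unsaturated fatty acids, was higher in both Treg groups than in Tconv, 4.36-fold in Eos+ Treg (adjusted p = 2.96e-05) and 3.21-fold in Eos- Treg (adjusted p = 0.000517). In contrast Acaa2, the mitochondrial thiolase, fell by 0.89 on the log2 scale in Eos+ Treg against Tconv (adjusted p = 0.000336) and by 0.78 in Eos- Treg against Tconv (adjusted p = 0.00233).

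Fatty acid activation, droplets and lipolysis, with 22 tested genes, had 2 higher (9.09%) and 1 lower (4.55%) in Eos+ against Eos- Treg. In Eos+ Treg against Tconv 5 were higher (22.7%) and 4 lower (18.2%). In Eos- Treg against Tconv 4 were higher (18.2%) and 1 lower (4.55%). Over all tested genes the shares higher and lower were 9.82% and 6.45%, 17.3% and 13.0%, and 8.76% and 5.89%. Dgat2, which makes triglyceride, had 79.1, 149, 174 and 151 CPM in Eos+ Treg, 25.3, 27.2, 26.9 and 40.8 in Eos- Treg and 4.28, 0.568, 2.05 and 2.73 in Tconv, with no overlap between any groups. The log2 change was 2.20 in Eos+ against Eos- Treg (SE 0.39, adjusted p = 0.00204) and 5.84 in Eos+ Treg against Tconv (SE 0.47, adjusted p = 1.59e-06). G0s2, an inhibitor of triglyceride lipase, went the other way, with 0.125, 1.06, 0.758 and 0.352 CPM in Eos+ Treg, 3.74, 3.30, 1.56 and 1.98 in Eos- Treg and 5.75, 6.60, 4.13 and 5.99 in Tconv. It fell by 2.19 on the log2 scale in Eos+ against Eos- Treg (SE 0.53, adjusted p = 0.0126) and by 3.28 in Eos+ Treg against Tconv (SE 0.54, adjusted p = 0.00052).

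Cholesterol uptake, storage and trafficking, with 15 tested genes, had 3 higher (20%) and 4 lower (26.7%) in Eos+ against Eos- Treg. In Eos+ Treg against Tconv 4 were higher (26.7%) and 6 lower (40%). In Eos- Treg against Tconv 0 were higher and 3 lower (20%). The all-gene shares higher and lower were 9.82% and 6.45%, 17.3% and 13.0%, and 8.76% and 5.89%. Osbpl3, of the oxysterol-binding protein family, had 98.1, 117, 125 and 108 CPM in Eos+ Treg, 14.4, 9.17, 13.7 and 9.62 in Eos- Treg and 7.03, 9.72, 6.12 and 12.5 in Tconv. Its log2 change was 3.26 in Eos+ against Eos- Treg (SE 0.23, adjusted p = 5.13e-06) and 3.66 in Eos+ Treg against Tconv (SE 0.24, adjusted p = 2.51e-07). Gramd1a, a carrier of cholesterol from the plasma membrane to the endoplasmic reticulum, had 778, 929, 762 and 663 CPM in Eos+ Treg, 1161, 1149, 1128 and 891 in Eos- Treg and 1539, 1373, 1766 and 1318 in Tconv. Against Tconv it fell by 0.94 on the log2 scale in Eos+ Treg (adjusted p = 0.000111). It also fell in Eos+ against Eos- Treg, by 0.47 (adjusted p = 0.0237), a call lost without Eos+ Treg number 1 (adjusted p = 0.0544), 3 (0.0591) or 4 (0.0596), without Eos- Treg number 2 (0.0588) or 3 (0.0533), and at 0.0966 without all libraries numbered 1.

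The list of LXR and sterol efflux, which holds receptors as well as targets, had 9 tested genes. In Eos+ against Eos- Treg 2 were higher (Smpdl3a and Rxra, 22.2%) and 2 lower (Mylip and Arl4c, 22.2%). In Eos+ Treg against Tconv 4 were higher (44.4%) and 3 lower (33.3%), and in Eos- Treg against Tconv 2 were higher (22.2%) and 1 lower (11.1%). Shares of all tested genes were 9.82% and 6.45%, 17.3% and 13.0%, and 8.76% and 5.89%. Smpdl3a, a phosphodiesterase known as a target of the oxysterol receptor LXR, had 271, 284, 228 and 219 CPM in Eos+ Treg, 99.9, 79.1, 74.9 and 82.6 in Eos- Treg and 42.9, 42.7, 43.5 and 53.7 in Tconv, and all 3 groups were apart. It was 2.98-fold higher in Eos+ than in Eos- Treg (adjusted p = 7.16e-06) and 1.84-fold higher in Eos- Treg than in Tconv (adjusted p = 0.000317). Rxra, a partner of LXR, was 2.96-fold higher in Eos+ than in Eos- Treg (adjusted p = 0.00353). Arl4c, a small GTPase and also an LXR target, had 11.1, 12.6, 19.4 and 18.1 CPM in Eos+ Treg, 20.8, 25.6, 29.3 and 29.3 in Eos- Treg and 35.2, 41.8, 56.5 and 47.0 in Tconv. It fell by 1.56 on the log2 scale in Eos+ Treg against Tconv (adjusted p = 9.08e-05) and by 0.78 in Eos+ against Eos- Treg (adjusted p = 0.0197), the second of which was lost without Eos+ Treg number 1 (adjusted p = 0.0541) or 2 (0.0619) or Eos- Treg number 3 (0.0564) or 4 (0.0549).

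Mid1ip1, which promotes the activity of the Acaca enzyme, was 4.88-fold higher in Eos+ than in Eos- Treg (adjusted p = 0.000758) and 6.31-fold higher than in Tconv (adjusted p = 8.90e-05). Going the other way, Acss2, which makes acetyl-CoA from acetate, had 47.3, 57.5, 52.9 and 58.5 CPM in Eos+ Treg, 114, 117, 133 and 116 in Eos- Treg and 124, 115, 143 and 118 in Tconv. Acss2 fell by 1.15 on the log2 scale in Eos+ against Eos- Treg (adjusted p = 1.13e-05) and by 1.21 in Eos+ Treg against Tconv (adjusted p = 1.39e-06). Etfb, Gramd1a, Acss2 and Mid1ip1 share exon positions with 2, 2, 3 and 1 other annotated genes, from which their reads cannot be told apart without strand. The summed B cell markers given above were higher in the same Eos+ Treg libraries, and their part in these changes was not tested.

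The sterol isomerase Ebp was 1.43-fold higher in Eos+ Treg than in Tconv (adjusted p = 0.00161). No other of 9 further sterol and isoprenoid enzymes passed in that comparison (11.1% higher, against 17.3% of all tested genes). In Eos+ against Eos- Treg only Dhdds passed, as higher (log2 change 0.44, adjusted p = 0.0458, 11.1% against 9.82%). That call was lost in 13 of 20 alternatives. In Eos- Treg against Tconv 0 of the 9 passed, with all-gene shares of 8.76% higher and 5.89% lower.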

How the data were processed

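The authors deposited RSEM expected counts, which are not normalized. The tools were cutadapt 1.18, STAR 2.7.0f and RSEM 1.3.1 on the mm10 build, per the submitters' processing notes; parameters and annotation release are not given in the sources used here. Template-switching cDNA synthesis from 1 ng RNA, per the labels' protocols, does not mark strand. All 55450 gene IDs matched GENCODE M21, from which positions and exon lengths were taken. Between 9.54% and 10.7% of gene values per library were not whole, because RSEM divides multiply matching reads between genes; this held in at least 1 library for 11 of the 33 lipid genes.

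Rounded expected counts were tested with edgeR 4.0.16 in R 4.3.3 (quasi-likelihood F test, TMM factors, filterByExpr, 1 mean per group over 12 libraries). P-values were two-sided, adjusted by the Benjamini-Hochberg method over 15361 genes per comparison, and called under 0.05. CPM levels use totals scaled by the TMM factors. Standard errors were computed from the log2 change and its F value, and 95% intervals from the t quantile at the fit's degrees of freedom. The scripts were tested on simulated data. The 20 alternatives were a replicate block, DESeq2 1.42.0, limma-voom (limma 3.58.1), RLE factors, no low-count filter, a filter at CPM 1 in 4 libraries, only the 8 libraries compared, each library left out, and the libraries numbered 1 left out together.

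Replicate numbers paired the samples: after removal of group means, all 12 correlations between same-numbered libraries of different groups were 0.138 to 0.318, against -0.226 to 0.0695 for other pairs, and 24 of 24 best matches had the same number. Library names also carry 1 shared code per number. Counts of replicates differed beyond sampling noise in all 18 pairs (chi-square per degree of freedom 24.3 to 75.0).

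The genes and lists were chosen with earlier results of these data known. All 33 genes are named. From each further list and comparison, genes were taken from the 2 called with the largest change (4 for oxidation), a number reduced from up to 4 after values had been seen, and the text names a selection of them.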

Additional observations from a re-analysis of the deposited data

Results flagged for a closer look

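Single libraries that lay far from the other 3 of their group were looked for in 186 groups of 4, by the gap to the nearest library over the group's range (Dixon's 95% critical value). Chance gives such a value in about 1 of 20 groups, and 23 were found. In the lipid genes there were 10 among 99 groups. Eos+ Treg number 1 was high for Scd1 (5.93 CPM) and low for Abca1 (57.9 CPM) and Cpt1a (52.3 CPM). Eos+ Treg number 3 was high for Fasn (164 CPM), and Eos+ Treg number 4 for Stard4 (18.5 CPM). Among the Eos- Treg libraries, number 1 was high for Fdps (57.2 CPM) and Acaca (9.84 CPM), number 2 for Scd1 (0.342 CPM) and number 4 for Fabp5 (22.9 CPM). Tconv number 4 was high for Sc5d (58.0 CPM).

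In the further pathway genes there were 13. In Eos+ Treg these were Etfb in number 1 (95.9 CPM), Acaa1a in number 3 (122 CPM) and Nceh1 in number 4 (32.5 CPM). In Eos- Treg they were Acaa2 (143 CPM) and Ebp (74.4 CPM) in number 1, Acss2 (133 CPM) and Etfb (45.5 CPM) in number 3, and Dgat2 (40.8 CPM) and Gramd1a (891 CPM) in number 4. In Tconv all were in number 4: Cpt1b (1.84 CPM), Elovl7 (3.92 CPM), Etfb (57.8 CPM) and Smpdl3a (53.7 CPM).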

How the results depend on the processing

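Between Eos+ and Eos- Treg the lipid genes called numbered 5 as reported, 8 with the replicate block and 2 to 6 with 1 library left out. Eos+ Treg against Tconv had 7 as reported, 11 with the replicate block and 4 to 8 with 1 library left out. In Eos- Treg against Tconv there was 1 as reported, 6 with the replicate block, 5 with DESeq2, 2 with limma-voom, 2 with the filter at CPM 1, 3 with only the 8 libraries compared, 2 without the libraries numbered 1 and 1 to 3 with 1 library left out. The cause of these differences was not tested. The block added Sqle, Cyp51 and Dhcr7 in the first comparison, Fdps, Sqle, Dhcr7 and Abca1 in the next, and Lss, Abcg1, Acly, Fasn and Elovl6 in the last, and changed no other call of a lipid gene. Counts over all tested genes stayed within 1.5 times of those reported in every alternative. Of 1980 results for single lipid genes, 1896 kept their side of the threshold, 45 fell from called to not called and 39 rose to called. Only the 5, 7 and 1 comparisons called as reported could fall, each in 20 alternatives, so 1980 is not the base for the 45. The sign of the change differed in some alternative for 17 of 99 gene comparisons, 0 of them called as reported. Depth limits Scd1 most: in the Eos- Treg libraries 3 counts correspond to 0.0855 to 0.125 CPM, and 3 of its 4 values there are at or below this. These floors describe counting error alone, because PCR copies of a molecule cannot be recognised here.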
